A study of Mus musculus with 2 samples.

Results

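Solute carriers are membrane transporters whose mouse genes are named Slc, a family number, the letter a and a member number. Every gene of the peak table whose symbol had exactly this form was taken, and the densities of its peaks were summed. This gave 249 genes with 688 peaks, out of 16934 genes with an assigned peak and 63316 peaks in all. The genes came from 48 families and lay on 20 chromosomes. RefSeq lists 337 mouse symbols of this form, of which 73.9% had a peak here.

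ATAC-seq, which tags accessible DNA with adapters carried by a transposase, was the assay. The cells were primary mouse cardiac fibroblasts, and both cultures received TGF-β, the cytokine that drives fibroblasts towards contractile, matrix-producing myofibroblasts, at 5 ng/ml for 24 h. The SCR culture carried a scrambled siRNA and the siPiezo2 culture an siRNA against Piezo2, a mechanically gated cation channel. Each condition had 1 library, which leaves every difference without a replicate check or a test, and because an siRNA acts on the mRNA, peaks at Piezo2 do not check the knockdown. The series' own design text names a Tet3 knockout made with a Cre virus in place of the siRNA, and the methods speak of minced tissue and of a different kit, so the groups rest on the sample labels.

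Solute carriers move amino acids, sugars, nucleotides, vitamins, metals and inorganic ions across the plasma membrane, the inner mitochondrial membrane and the membranes of vesicles and lysosomes. Some exchange one solute for another, some couple uptake to the sodium gradient and others let a solute run down its own gradient. In fibroblasts that turn into myofibroblasts, uptake of glucose, glutamine and proline is known to feed collagen synthesis and growth. Calcium and proton exchangers of these families set ion levels in many heart cells.

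Behind the carrier peaks, in windows of 2000 bp, stood 49908 SCR reads and 29506 siPiezo2 reads, with medians of 60 and 37 per peak. Values below are the authors' normalized read densities (reads per 1000 bp), summed over a gene's peaks unless a single peak is named. Their ratio is given as log2((siPiezo2 + 1)/(SCR + 1)), on which a negative value means less signal in the siPiezo2 library. Intervals are 95% exact binomial (Clopper-Pearson) intervals on reads recovered from the table. Only counting error is in them, and the peaks shared by both libraries had 2.08 times that variance. Of the carrier windows, 66 overlap the one before, so that reads there were counted more than once and those intervals are too narrow. In such a bulk culture, fewer cells with an open site and less opening per cell cannot be told apart.

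The fibroblast label was checked against marker genes. All 7 fibroblast markers, Pdgfra, Tcf21, Col1a1, Col1a2, Dcn, Ddr2 and Postn, had a peak at a transcription start, and their start peaks summed to 327 in SCR and 301 in siPiezo2. A start peak was found for 1 of 5 cardiomyocyte markers, 1 of 5 endothelial markers, 0 of 5 macrophage markers, 1 of 5 smooth muscle and pericyte markers, 2 of 4 mesothelial markers and 0 of 3 Schwann cell markers. Myh6, Nppa, Adgre1, Cd68, Kcnj8 and all 3 Schwann cell markers had no assigned peak, while the other markers had one, mostly away from the start. Over all its peaks the endothelial list summed to 477 in SCR and 509 in siPiezo2, the smooth muscle and pericyte list to 443 and 371, the macrophage list to 183 and 151, the cardiomyocyte list to 146 and 152 and the mesothelial list to 113 and 108. The part of these cells in the values below was not tested.

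As a whole the carriers lay close to all other genes with a peak. Summed over all 249 genes, the density was 20427 in SCR and 18709 in siPiezo2. The median log2 ratio of the genes was -0.096, with quartiles of -0.33 and 0.077 and a range from -1.20 to 0.76, and the median of all genes with a peak was -0.093. Below 0 lay 161 genes (64.7%), against 62.6% of all genes. Most of their peaks, 465 (67.6%), had been called in the SCR library only, 218 (31.7%) in both libraries and 5 (0.727%) in the siPiezo2 library only. Of all gene-assigned peaks 61.2% had been called in the SCR library only, 36.8% in both and 1.99% in the siPiezo2 library only. For comparison, 41 genes of ABC transporters had a median of -0.098 and 110 genes of ion channels a median of -0.10.

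**Figure D1:**
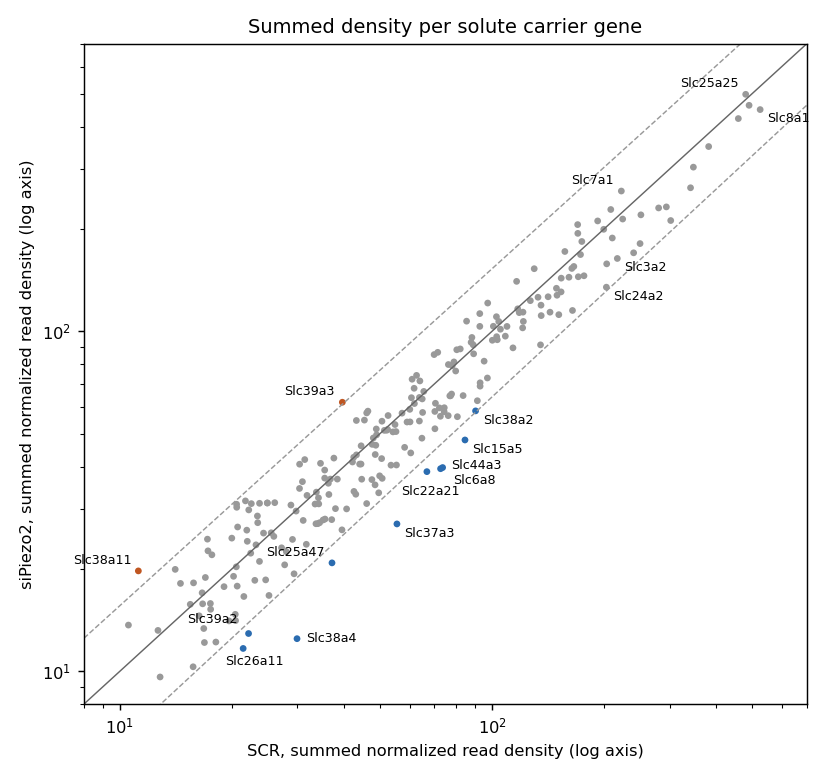
Each point is 1 of the 249 solute carrier genes, with its summed normalized read density in the SCR library on the x axis and in the siPiezo2 library on the y axis, both on log axes. The solid line marks equal densities and the dashed lines ratios of 0.66 and 1.5. Below the lower dashed line lie 10 genes in blue and above the upper one 2 genes in orange, while 237 lie between them.

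A gene was counted as lower where its ratio was below 0.66 and as higher where it was above 1.5. By this count 10 carrier genes (4.02%) were lower, against 6.21% of all genes, and 2 (0.803%) were higher, against 1.54%. The split between lower and higher depended on the scaling, for the carriers and for all genes alike. With median-of-ratios scaling 9 carriers (3.61%) were lower and 7 (2.81%) higher, against 3.42% and 3.83% of all genes. With trimmed mean scaling 9 (3.61%) were lower and 8 (3.21%) higher, against 3.39% and 3.89%. At the same total density 9 (3.61%) were lower and 5 (2.01%) higher, against 4.22% and 2.70%. With recovered reads at the same total 6 (2.41%) were lower and 11 (4.42%) higher, against 3.02% and 4.32%. The lower share was thus below that of all genes in the deposited densities, at the same total and with recovered reads, and slightly above it with median-of-ratios and trimmed mean scaling. Under these scalings the median of all genes moved from -0.093 to 0.043, 0.046, -0.0076 and 0.030, and the carriers' median moved with it to 0.042, 0.045, -0.0088 and 0.027. Directions of groups are therefore given relative to the median of all genes. That median makes no allowance for the number of peaks per gene. In all genes it was -0.061 for those with 1 peak, -0.10 with 2 to 4 and -0.15 with 5 or more. Whether an interval left out 0 depended on the scaling as well. In the deposited densities, to which the intervals below belong, 42 carriers (16.9%) had an interval below 0 and 6 (2.41%) one above it, against 15.6% and 4.35% of all genes. Under the other scalings 21 to 24 carriers (8.43% to 9.64%) lay below 0, against 7.07% to 9.71% of all genes, and 18 to 27 (7.23% to 10.8%) above it, against 8.06% to 11.3%.

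The 10 lower genes were Slc38a4, Slc37a3, Slc6a8, Slc44a3, Slc26a11, Slc15a5, Slc25a47, Slc22a21, Slc39a2 and Slc38a2, from 9 families. Of these, 9 stayed below 0.66 under median-of-ratios, trimmed mean and equal-total scaling, the exception being Slc38a2. With recovered reads at the same total 6 stayed below it, and Slc38a2, Slc22a21, Slc26a11 and Slc39a2 did not. Of the 10, only Slc37a3 had a peak called in both libraries, while the peaks of the others had been called in 1 library only. Carrier peaks called in the SCR library only had a median of -0.20, against 0.039 for those called in both. With peaks called in both libraries only, 1 of the 10 was still lower. The 2 higher genes, Slc38a11 and Slc39a3, stayed above 1.5 under all 4 scalings. Just inside the lower threshold were Slc38a2, at a ratio of 0.650, and Slc39a2, at 0.60. Just outside it were Slc24a2, at 0.666, and Slc2a10, at 0.668. At the upper threshold Slc25a5, at 1.48, and Slc66a1, at 1.45, lay just below, and Slc39a3, at 1.55, just above.

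Single peaks were counted in the same way. Of the 688 carrier peaks, 85 (12.4%) were below 0.66 of SCR, against 12.2% of all gene-assigned peaks, and 18 (2.62%) were above 1.5, against 2.82%. Among the 179 carrier peaks in the strongest 25% of all peaks, 13 were lower (7.26%) and 6 higher (3.35%), with backgrounds of 8.02% and 2.36%. Of the 126 promoter peaks, which the table places within 1 kb of a start, 6 (4.76%) were lower and 4 (3.17%) higher, with backgrounds of 5.86% and 1.98%.

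Of the 203 carriers with at least 100 reads over both libraries, the 8 with the lowest ratios all had intervals below 0: Slc37a3, Slc6a8, Slc44a3, Slc15a5, Slc25a47, Slc22a21, Slc38a2 and Slc24a2. Those genes were picked by the same ratios, as were the 8 with the highest ratios, so the intervals are no separate support. Of these 8 highest only Slc39a3 had an interval above 0 in the deposited densities, and this depended on the scaling. The other 7 were Slc25a46, Slc25a48, Slc12a9, Slc25a4, Slc36a2, Slc12a3 and Slc39a8. Among these the kidney-type salt cotransporter Slc12a3 had 23.7 and 31.2 (0.38), its relative Slc12a9 had 22.2 and 29.8 (0.41), and the amino acid carrier Slc36a2 had 31.4 and 41.9 (0.41), with both peaks nearer to another gene.

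Promoter sequences are shown for 5 carriers whose start carried a peak and whose roles recur below: the cystine carrier Slc7a11, the zinc importer Slc39a3, the heavy chain Slc3a2, the glucose carrier Slc2a1 and the ergothioneine carrier Slc22a4. They are the 250 bases before the RefSeq start, or the longest stretch of these outside annotated exons, on GRCm38.p6 and read 5′ to 3′ on the gene's strand. Of the 249 genes, 190 were matched by symbol in the RefSeq table. Capitals mark the motifs that were searched on both strands. The peak positions of the table are on another assembly, so the peaks are placed by their distance to the start and not by coordinate.
Slc7a11, chr3:50443615-50443863, minus strand: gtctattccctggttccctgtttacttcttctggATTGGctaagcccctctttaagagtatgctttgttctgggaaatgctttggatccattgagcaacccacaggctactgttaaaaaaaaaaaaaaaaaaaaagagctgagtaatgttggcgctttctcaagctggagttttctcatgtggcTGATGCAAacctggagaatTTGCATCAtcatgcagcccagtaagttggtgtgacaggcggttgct
Slc39a3, chr10:81037427-81037565, minus strand: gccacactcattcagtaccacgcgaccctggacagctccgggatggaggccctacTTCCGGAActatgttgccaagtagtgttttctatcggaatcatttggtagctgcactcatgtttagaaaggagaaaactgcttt
Slc3a2, chr19:8713898-8713960, minus strand: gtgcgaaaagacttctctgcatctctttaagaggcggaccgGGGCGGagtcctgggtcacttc
Slc2a1, chr4:119108495-119108710, plus strand: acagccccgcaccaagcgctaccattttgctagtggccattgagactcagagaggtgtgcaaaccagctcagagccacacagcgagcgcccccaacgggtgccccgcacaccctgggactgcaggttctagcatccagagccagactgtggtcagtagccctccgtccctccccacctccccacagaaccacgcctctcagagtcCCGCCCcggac
Slc22a4, chr11:54028105-54028354, minus strand: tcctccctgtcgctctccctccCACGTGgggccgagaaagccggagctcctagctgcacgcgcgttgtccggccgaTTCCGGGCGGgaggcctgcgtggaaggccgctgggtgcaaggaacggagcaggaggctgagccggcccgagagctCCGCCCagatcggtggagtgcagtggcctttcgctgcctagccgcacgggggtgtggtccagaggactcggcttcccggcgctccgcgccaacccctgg

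In the Slc7a11 window the amino acid response element TGATGNAA, the kind of site that ATF4 binds when amino acids are short, stood on opposite strands 66 and 47 bases before the start, and an NF-Y motif (CCAAT) 216 bases before it. The Slc39a3 stretch held the ETS motif CCGGAA on both strands, overlapping, 195 and 193 bases before the start. SP1 motifs (GGGCGG) lay 22 bases before the start of Slc3a2 and 45 bases before that of Slc2a1. Slc22a4 held an E-box (CACGTG) at 228 bases, which includes the hypoxia element ACGTG, SP1 motifs at 170 and 99 bases, and an ETS motif at 174 bases that overlaps the first of these. Among 70 carrier genes with a start peak and a matched window, 68.6% held an SP1 motif, 48.6% an NF-Y motif, 28.6% a hypoxia element, 21.4% an ETS motif, 20% an E-box and 4.29% the amino acid response element. The shares of all 32817 windows were 32.7%, 33.8%, 16.6%, 12.02%, 6.02% and 3.45%. The carrier windows had been picked for an open start, which the full set of windows was not. The AP-1 motif TGANTCA was in 10% of the carrier windows and 6.75% of all, and the TEAD motif GGAATG in 11.4% and 12.6%. The CRE TGACGTCA and the CArG box were in none of the 70, and in 1.55% and 1.47% of all windows. These are matches of letters and not binding sites.

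Among carriers of amino acids and neurotransmitters, 46 genes with 150 peaks, the median log2 ratio was -0.16, and 24 of 46 lay below the median of all genes. In this group 3 genes (6.52%) were lower and 1 (2.17%) higher, close to the 6.21% and 1.54% of all genes. Slc38a2, a sodium-coupled carrier of glutamine, alanine and proline, had densities of 90.3 in SCR and 58.3 in siPiezo2, from 216 and 93 reads and with a log2 ratio of -0.62 (interval -0.99 to -0.27). All 3 of its peaks were lower in siPiezo2, from the promoter peak (38.6 and 28.6) to the one downstream of the gene (29.7 and 14.9). Slc38a4, a related carrier, had a single peak in intron 12, with 29.9 and 12.5 (70 and 20 reads, log2 ratio -1.20, interval -2.02 to -0.49), the lowest ratio of the 249 genes. In the Slc38 family 5 of 9 genes lay below the median of all genes (4 with recovered reads). Slc38a1 had 141 and 126 over 6 peaks (-0.16, interval -0.42 to 0.092) and Slc38a9 had 136 and 111 (-0.28, interval -0.56 to -0.017). On the other side Slc38a11 had 11.2 and 19.7, a ratio of 0.76 from 25 and 33 reads whose interval reached -0.023.

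Slc6a8, which takes up creatine, had 73.6 in SCR and 39.7 in siPiezo2 (178 and 63 reads), a log2 ratio of -0.87 (interval -1.32 to -0.46). Both of its peaks were lower. The start peak had 36.1 and 18.9 and the peak in intron 1 had 37.5 and 20.8, but the peaks are so close that their windows share reads. With separate windows only, the ratio was -0.82. Slc1a5, the glutamine carrier ASCT2, had 91.3 and 62.5 (log2 ratio -0.54, interval -0.90 to -0.20), and both of its peaks were lower, at ratios of -0.61 and -0.40. Its relative Slc1a4, which carries alanine and serine, had 130 and 153 (0.23, interval -0.017 to 0.48), with more signal at its promoter peak (109 and 134) and not in intron 1 (20.6 and 18.4). The glutamate carrier Slc1a3 had 203 and 158 over 8 peaks (-0.36, interval -0.59 to -0.14). In the Slc1 family as a whole 4 of 7 genes lay below the median of all genes, under each scaling alike.

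Slc3a2 is the heavy chain CD98, which pairs with light chains of the Slc7 family and brings them to the cell surface. It had 217 in SCR and 164 in siPiezo2 (556 and 249 reads), a log2 ratio of -0.40 (interval -0.63 to -0.19). All 4 of its peaks were lower. The 3 peaks at its starts had 72.8 and 58.7, 69.0 and 53.1, and 49.0 and 39.5, while the peak downstream had 26.3 and 12.4. The windows of the first and second of these share reads, and with separate windows only the ratio of the gene was -0.42. None of 5 light chains had an interval that left out 0: the leucine carrier Slc7a5 had 149 and 134 (-0.15), Slc7a6 had 79.0 and 81.2 (0.040), Slc7a7 had 72.2 and 59.5 (-0.27), Slc7a8 had 77.4 and 64.6 (-0.26), and the cystine and glutamate exchanger Slc7a11 had 161 and 144 (-0.16, but 0.12 with recovered reads). At Slc7a11 the promoter peak, over the window printed above, had 25.8 and 28.7 (0.15), and 6 of its 10 peaks were nearer to the start of Gm37854. The arginine carrier Slc7a1, which needs no heavy chain, had 223 and 259 (0.22, interval 0.026 to 0.40), the 1 gene among the 32 carriers chosen for a well known role whose interval lay above 0 in the deposited densities. Its strongest difference was in intron 2, with 38.5 and 61.7 (0.67, interval 0.25 to 1.09), whereas its promoter peak had 21.1 and 16.6. The taurine carrier Slc6a6 had 208 and 228 (0.13, interval -0.070 to 0.33).

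Among the sugar carriers, 17 genes with 40 peaks, the median was -0.098 and none was past a threshold. The glucose carrier Slc2a1 had 166 in SCR and 155 in siPiezo2 (-0.096, interval -0.33 to 0.13). Its 3 peaks differed: the promoter peak had 56.4 and 41.8 (-0.42, interval -0.88 to 0.0049), and the peaks in intron 2 had 50.8 and 48.3 and 58.6 and 65.0. Both intron peaks were nearer to the start of another gene. The neuronal-type glucose carrier Slc2a3 had 40.7 and 30.01 (-0.43), and the insulin-responsive Slc2a4 had 27.7 and 20.6 (-0.41), and both intervals included 0. In the Slc2 family 7 of 9 genes lay below the median of all genes under each scaling.

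The monocarboxylate carriers, all of the Slc16 family, had a median of -0.22 over 11 genes with 34 peaks. Below the median of all genes lay 8 of the 11, and 7 with recovered reads, and none was past a threshold. The lactate carriers Slc16a1 (54.2 and 50.6, -0.097) and Slc16a3 (109 and 96.7, -0.16) had intervals that included 0. A lower value came from Slc16a11 (49.6 and 33.5, -0.55, interval -1.05 to -0.083). Slc16a10, which carries aromatic amino acids, was the single member above 0, with 157 and 172 (0.13). It held both the highest of the strong carrier peaks, in intron 1 at chr10:39970757-39971117 (27.5 and 47.0, 0.75, interval 0.26 to 1.25), and a much lower one in intron 3 (27.3 and 9.95, -1.37).

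**Figure D2:**
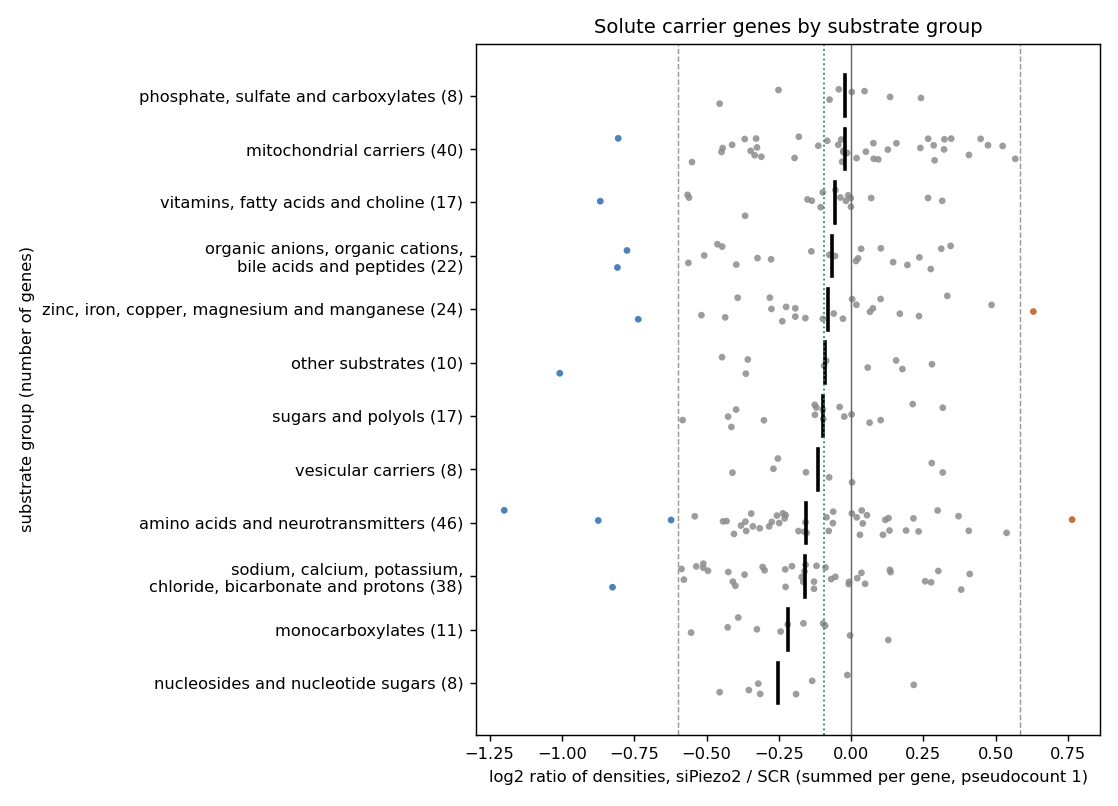
Each point is 1 solute carrier gene, placed by its log2 ratio of siPiezo2 to SCR density on the x axis, in rows by substrate group with the number of genes in brackets. Black bars mark group medians, dashed lines the ratios 0.66 and 1.5, the dotted line the median of all genes (-0.093), and blue and orange points the 10 lower and 2 higher genes. Group medians run from -0.25 for nucleosides and nucleotide sugars to -0.020 for mitochondrial and phosphate carriers, within a wide spread of single genes.

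Mitochondrial carriers of the Slc25 family, 40 genes with 72 peaks, had a median of -0.020, and 14 of 40 lay below the median of all genes. Their median number of peaks was 1, and all genes with 1 peak had a median log2 ratio of -0.061. Summed over the family, SCR had 2433 and siPiezo2 had 2432. The ADP/ATP carriers Slc25a4 and Slc25a5 had 30.4 and 40.6 (0.41) and 20.6 and 31.0 (0.57), each from a single promoter peak. In the deposited densities both intervals included 0. That of Slc25a5 lay above 0 under the 4 other scalings, and that of Slc25a4 with median-of-ratios and trimmed mean scaling. Also on the high side were Slc25a46, with 21.7 and 31.7 (0.52), and Slc25a48, with 22.5 and 31.1 (0.45), with intervals that included 0 in the deposited densities. When recovered reads were set to the same total, 11 carriers (4.42%, against 4.32% of all genes) were above 1.5. Of the 11, 5 were among the 40 genes of this family, and all 5 were below 1.5 in the deposited densities. Each of the 5 had a single peak, down to 23 and 23 reads at Slc25a53. Slc25a47 was the 1 lower gene (2.5%, against 6.21% of all genes), with 37.1 and 20.8 (90 and 33 reads, -0.81, interval -1.44 to -0.23) at a single peak downstream of the gene. Slc25a25, a calcium-regulated ATP-Mg and phosphate carrier, had 480 and 498 over 8 peaks (0.051, interval -0.082 to 0.18).

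Carriers of sodium, calcium, potassium, chloride, bicarbonate and protons, 38 genes with 148 peaks, had a median of -0.16, and 23 of 38 lay below the median of all genes (22 with recovered reads). The sodium-calcium exchanger Slc8a1, which extrudes calcium from heart cells, had 525 in SCR and 449 in siPiezo2 over 19 peaks (-0.23, interval -0.36 to -0.094), and a ratio of -0.090 with recovered reads. Of its peaks 9 were nearer to the start of another gene, and these summed to 264 and 270. The potassium-dependent sodium-calcium exchangers of the Slc24 family lay below the median of all genes in 4 of 4 genes, but in 2 of 4 with recovered reads. Slc24a2 had 203 and 135 (-0.59, interval -0.83 to -0.35) and Slc24a4 had 240 and 170 (-0.49, interval -0.71 to -0.29), while Slc24a1 (65.1 and 57.7) and Slc24a3 (382 and 349) had intervals that included 0. All 8 peaks of Slc24a4 were nearer to the start of another gene, 5 of them to Rin3.

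The potassium-chloride cotransporter Slc12a4 had 302 and 212 (-0.51, interval -0.70 to -0.32), and all 6 of its peaks were lower. Most of that difference sat in 1 peak of intron 3 at chr8:106683145-106683666, with 86.2 and 34.4 (223 and 52 reads, -1.30, interval -1.78 to -0.87), the lowest ratio among the strong carrier peaks. The sodium-potassium-chloride cotransporter Slc12a2 had 23.7 and 21.0 (-0.17). Of the 8 proton exchangers of the Slc9 family, 3 lay below the median of all genes (4 with recovered reads). The endosomal Slc9a9 had 342 and 264 (-0.37, interval -0.54 to -0.20), with 7 of its 13 peaks nearer to the start of another gene, and Slc9a8 had 170 and 206 (0.28, interval 0.062 to 0.49). The bicarbonate carriers Slc4a4 and Slc4a5 had 210 and 188 (-0.16) and 164 and 115 (-0.51, interval -0.77 to -0.26). Slc26a2, the sulfate carrier that supplies proteoglycan synthesis, had 92.9 and 68.9 (-0.42, interval -0.77 to -0.092), with both of its start peaks lower. Slc26a11, with a single intron peak, had 21.4 and 11.7 (-0.82, interval -1.69 to -0.057) and was the 1 gene of this group (2.63%, against 6.21% of all genes) past the lower threshold.

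Carriers of zinc, iron, copper, magnesium and manganese, 24 genes with 61 peaks, had a median of -0.079, with 1 lower and 1 higher gene (4.17% each, against 6.21% and 1.54% of all genes). Slc39a3, a zinc importer, had 39.6 in SCR and 61.8 in siPiezo2 (101 and 95 reads), a log2 ratio of 0.63 (interval 0.21 to 1.05). All of this came from 1 promoter peak, called in both libraries and 13 bp from the start whose upstream sequence is printed above. Its relative Slc39a2 had 22.2 and 12.9 (-0.74) at a promoter peak of 51 and 21 reads, with an interval up to 0.0031. Slc39a14, which imports zinc, iron and manganese, had 280 and 231 over 7 peaks (-0.28, interval -0.47 to -0.096), of which 6 were lower. Slc39a8 had 43.2 and 54.6 (0.33) and the zinc exporter Slc30a1 had 44.6 and 36.7 (-0.28), and both intervals included 0. The iron exporter Slc40a1 (17.5 and 15.2), the iron importer Slc11a2 (48.5 and 43.4) and the magnesium carrier Slc41a1 (42.5 and 42.6) likewise had intervals that included 0.

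Carriers of organic ions, bile acids and peptides, 22 genes with 52 peaks, had a median of -0.065 and 2 lower genes (9.09%, against 6.21% of all genes). Slc15a5, of the peptide carrier family, had 84.6 in SCR and 47.9 in siPiezo2 (200 and 77 reads, -0.81, interval -1.21 to -0.43), and all 3 of its peaks lay in introns. Slc22a21, a carnitine carrier, had 66.8 and 38.6 (-0.77, interval -1.23 to -0.35), most of it at its 5′ UTR peak (31.2 and 11.9). Slc22a4 had 89.2 and 85.8 (-0.055). Its promoter peak, over the window printed above, had more signal in siPiezo2 (31.9 and 42.7, 0.41, interval -0.082 to 0.90), and its peak in intron 1 less (39.1 and 26.7, -0.53, interval -1.10 to -0.0060). In the remaining group of other substrates, Slc37a3, of the sugar-phosphate exchanger family, was the 1 lower gene of 10 (10%, against 6.21% of all genes). It had 55.5 and 27.1 (139 and 42 reads, -1.01, interval -1.55 to -0.51) at a single promoter peak, at chr6:39349613-39350122 and called in both libraries.

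A single gene was past a threshold in the smaller groups below. It was 1 lower gene of the 17 carriers of vitamins, fatty acids and choline (5.88%, against 6.21% of all genes). The 8 nucleoside and nucleotide sugar carriers had a median of -0.25, and 6 of 8 lay below the median of all genes under each scaling. In this group the nucleoside carrier Slc29a1 had 61.8 and 61.3 (-0.013). The 8 phosphate, sulfate and carboxylate carriers had a median of -0.020, and the phosphate carriers Slc20a1 (127 and 123) and Slc20a2 (192 and 211) had intervals that included 0. The 17 carriers of vitamins, fatty acids and choline had a median of -0.054. Among them Slc44a3 had 72.7 and 39.4 (-0.87, interval -1.31 to -0.45), but all 3 of its peaks were nearest to the start of Cnn3. The choline carrier Slc44a1 (153 and 143, -0.098) and the fatty acid carrier Slc27a1 (64.9 and 63.2, -0.037) had intervals that included 0. The 8 genes grouped as vesicular carriers, all of the Slc17 and Slc18 families, had a median of -0.12.

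**Figure D3:**
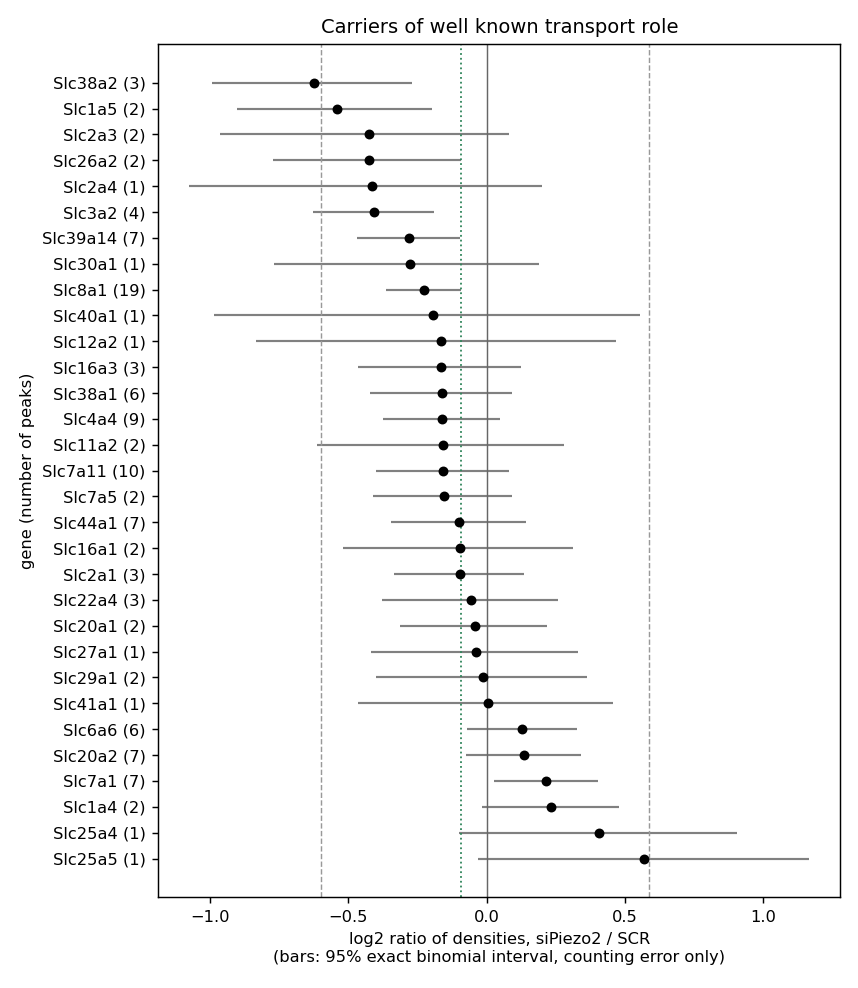
Points are log2 ratios of siPiezo2 to SCR density for 31 of the 32 carriers of well known transport role, in order of the ratio, with the number of peaks in brackets. Bars are 95% exact binomial intervals that cover counting error only, dashed lines mark ratios of 0.66 and 1.5, and the dotted line marks the median of all genes. In these deposited densities the interval lies below 0 for 6 genes and above it for Slc7a1, against 15.6% and 4.35% of all genes, while with median-of-ratios scaling it was below 0 for 3 and above it for 6 of the 32, against 7.18% and 11.1%. Read numbers were not matched between these carriers and all genes.

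Over the 32 carriers chosen for a well known role the median was -0.16, and 20 of 32 lay below the median of all genes (18 with recovered reads). Slc38a2 was the 1 gene of these past a threshold in the deposited densities (3.12%, against 6.21% of all genes lower and 1.54% higher). Under each of the 4 scalings it was no longer lower. In the deposited densities intervals lay below 0 for 6 of the 32 (18.8%, against 15.6% of all genes), namely Slc38a2, Slc1a5, Slc3a2, Slc26a2, Slc39a14 and Slc8a1, and above 0 for 1 (3.12%, against 4.35%). With median-of-ratios or trimmed mean scaling 3 (9.38%) lay below 0, Slc38a2, Slc1a5 and Slc3a2, and 6 (18.8%) above it, against 7.18% and 11.1% of all genes with the first and 7.07% and 11.3% with the second. The 6 above it were Slc1a4, Slc20a2, Slc25a4, Slc25a5, Slc6a6 and Slc7a1. At the same total density 6 (18.8%) lay below and 5 (15.6%) above, against 9.71% and 8.06% of all genes. With recovered reads 5 (15.6%) lay below and 4 (12.5%) above, against 8.33% and 8.83%. An interval narrows with more reads, and read numbers were not matched between these carriers and all genes.

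A gene's sum hid opposite peaks in several carriers. Of the 41 genes with 5 or more peaks 0 were past a threshold, where 1.58% of all genes with that many peaks were lower and 0.093% higher. Of the 106 genes with 1 peak 5 were lower (4.72%, against 8.31% of all genes with 1 peak). At Slc8a1, 10 of 19 peaks were below 0 and single peaks ran from -1.17 to 0.37. Within its intron 1, the peaks at chr17:81849665-81850282 (54.1 and 36.4), chr17:81887383-81888301 (53.1 and 28.4) and chr17:81912671-81913051 (32.2 and 13.8) were lower in siPiezo2. The peaks in intron 7 (47.0 and 50.2, and 48.8 and 53.6) were not. The peak in its 5′ UTR had 29.9 and 16.8 (-0.79, interval -1.51 to -0.15). In intron 1 of the proline carrier Slc6a7, a strong peak at chr18:61143291-61143643 had 52.4 and 27.7 (-0.90, interval -1.44 to -0.40). Strong peaks with more signal in siPiezo2 lay in intron 2 of Slc45a4, at chr15:73476400-73476747 (29.0 and 47.7, 0.70, interval 0.21 to 1.19), and in intron 2 of Slc14a2, at chr18:78526691-78527134 (30.2 and 48.5, 0.67, interval 0.19 to 1.15), a peak nearer to the start of another gene. At Slc7a11 single peaks ran from -1.50 to 0.69 and at Slc9a9 from -1.24 to 0.45. Of the other carriers with the most peaks, the urea carrier Slc14a2 had 491 and 462 over 17 peaks (-0.086, interval -0.22 to 0.047), with 9 of them below 0, and Slc39a11 had 348 and 304 over 14 peaks (-0.19, interval -0.36 to -0.031), with 11 below 0. Of these peaks, 9 of 17 and 7 of 14 were nearer to the start of another gene. By contrast, all 8 peaks of Slc10a7, all 8 of Slc24a4, all 6 of Slc12a4 and all 5 of Slc1a7 were below 0 in the deposited densities. In this order their highest peaks were at -0.073, -0.043, -0.037 and -0.18, and the scaling moves where 0 falls. At Slc10a7 the peaks at the start and in intron 1 had ratios of -0.078 and -0.12 and the 3′ UTR peak one of -0.073, whereas the pair in intron 8 had 46.0 and 21.7 (-1.05) and 40.6 and 21.6 (-0.88).

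**Figure D4:**
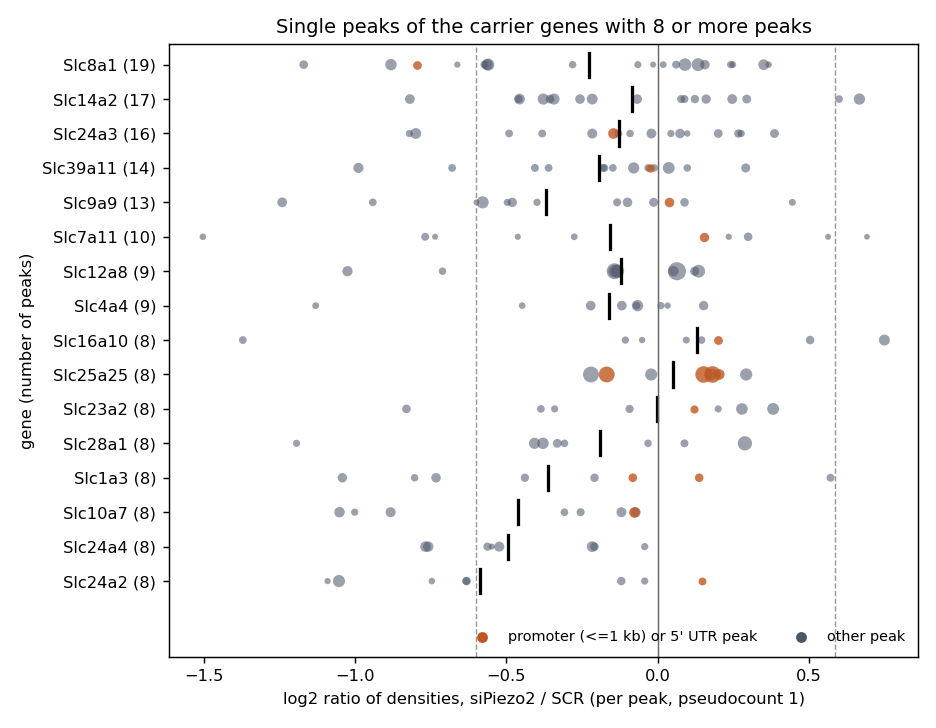
Each point is 1 peak of the 16 carrier genes with 8 or more peaks, placed by its log2 ratio of siPiezo2 to SCR density, with point area proportional to the mean density of both libraries. Orange points are promoter or 5′ UTR peaks, black bars the ratio of the gene's summed density, and dashed lines ratios of 0.66 and 1.5. Peaks of 1 gene lie on both sides of 0 in 14 of the 16 genes, the exceptions being Slc24a4 and Slc10a7.

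Start peaks and intron peaks of the same gene were compared in the 74 carriers that had both. The start peaks (promoter and 5′ UTR) had a median of -0.085 and the intron peaks of -0.17. Introns were lower than the start in 45 genes (60.8%), against 62.2% of the 4353 genes of any kind with both. Slc24a2 had 18.1 and 20.2 at its 5′ UTR (0.15), while 7 of 7 intron peaks were lower in siPiezo2. Among the strong carrier peaks, its intron 2 peak at chr4:87014409-87014873 had 61.8 and 29.2 (-1.05, interval -1.58 to -0.58). Slc2a1 and Slc7a1 went the opposite way, with start peaks lower than introns, though both intron peaks of Slc2a1 were nearer to the start of another gene.

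**Figure D5:**
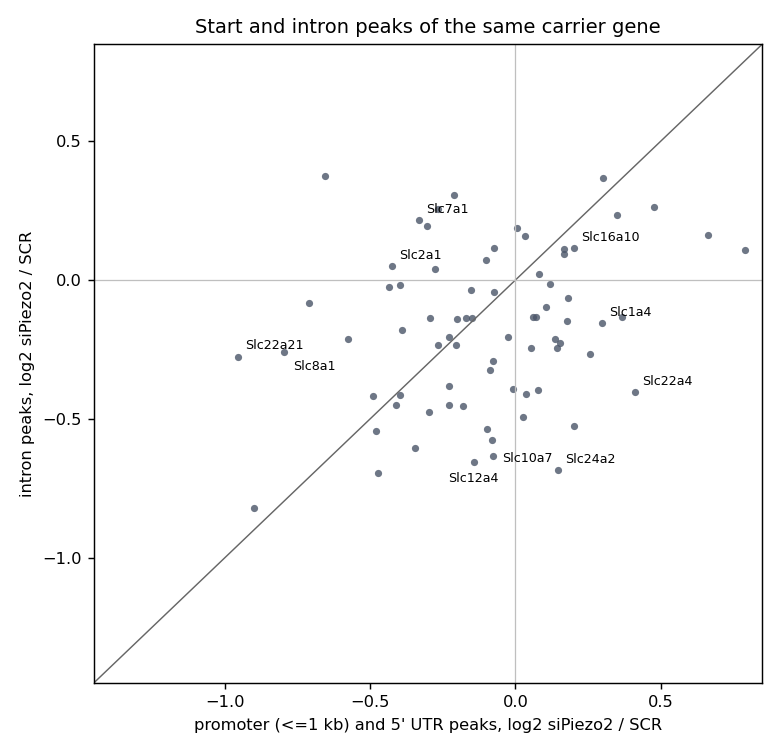
Each point is 1 of the 74 carrier genes with both kinds of peak, with the log2 ratio of siPiezo2 to SCR density of its promoter and 5′ UTR peaks on the x axis and of its intron peaks on the y axis. The diagonal marks equal ratios. Below the diagonal lie 45 genes, among them Slc24a2, Slc22a4, Slc10a7 and Slc12a4, and Slc2a1, Slc7a1 and Slc22a21 lie above it.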

How the data were processed

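ATAC-seq libraries from primary mouse cardiac fibroblasts, SCR and siPiezo2, were compared with 1 library per condition. Per the methods, the authors trimmed adapters, aligned reads with bwa (BWA 0.7.12 in the submitters' processing notes), removed PCR duplicates with Picard and called peaks with MACS2. The deposited table gives, per peak, a read density (signal) for each library, which the authors had normalized by fitting a line to an MA plot, as the column names show. The notes name mm10, while gene positions in the table are those of GRCm39 and are given as the table has them. Columns with the authors' log2 ratios, mean log2 densities and p-values were not used as results.

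Densities were summed over the peaks that the table assigns to each gene, and the log2 ratio was taken with a pseudocount of 1. Whole reads in windows of 2000 bp were recovered from the authors' log2 values after undoing the fit. They came out whole (tolerance 0.05) in both libraries for 100% of peaks, with 1 count per window taken off on the assumption that it had been added. All windows together had 4615335 SCR and 2754046 siPiezo2 reads (ratio 0.597), and this depth limits the precision of single peaks. No count test was run, since there was 1 library per condition. Ratios below 0.66 or above 1.5 were counted.

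Named were 32 carriers of well known role, the 8 lowest and 8 highest ratios among the 203 carriers with at least 100 reads, the 5 genes with the most peaks, and the 5 lowest and 5 highest of the strongest 25% of peaks. Other genes were named after their values were seen. Single values of 2 carriers are not reported here. The members, lists and rules were chosen with earlier results of these data known. Substrate groups follow family numbers, so single members can carry other substrates than the group name says, as with the sulfate carrier Slc26a2. Alternatives were the pseudocount (0.1), 4 scalings, classes of peaks, 1 peak per gene, a filter on low values and a fold of 2. Procedures were tested on simulated data. Promoter windows came from RefSeq (GRCm38.p6). Scripts ran on Python 3.11.15 with scipy 1.17.1, pandas 2.3.3, numpy 2.4.6 and matplotlib 3.10.9.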

Additional observations from a re-analysis of the deposited data

How the results depend on the processing

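The median of the carriers, -0.096 in the deposited densities, moved with the median of all genes. It crossed 0 with median-of-ratios scaling (0.042), trimmed mean scaling (0.045), recovered reads at the same total (0.027) and peaks called in both libraries (0.014), where the medians of all genes were 0.043, 0.046, 0.030 and 0.0086. The count of 10 lower genes (4.02%, against 6.21% of all genes) became 6 with recovered reads (2.41%, against 3.02%), 5 with promoter peaks only (4.42%, against 5.33%), 4 with peaks called in both libraries (2.65%, against 2.71%), 19 with the strongest peak of each gene (7.63%, against 8.64%) and 2 at a fold of 2 (against 0.839%). The count of 2 higher genes (0.803%, against 1.54%) became 7 with median-of-ratios scaling (2.81%, against 3.83%), 5 at the same total density (2.01%, against 2.70%), 8 with trimmed mean scaling (3.21%, against 3.89%), 11 with recovered reads (4.42%, against 4.32%), 4 with promoter peaks only (3.54%, against 1.89%), 1 outside the promoter class (0.483%, against 1.75%), 4 with peaks called in both libraries (2.65%, against 2.41%), 9 with the strongest peak (3.61%, against 2.61%), 1 among the strongest 75% of genes (0.521%, against 0.929%) and 0 at a fold of 2 (against 0.154%). Fewer genes had such peaks in the class-restricted settings (113 with a promoter peak, 151 with a peak called in both libraries). Otherwise the cause was not tested. Of 497 values of single named genes under the alternatives, 38 in 14 genes moved by more than the counting error, and the 8 named genes past a threshold kept their direction. No paired analysis was possible because there was 1 library per condition. Depth limits single peaks most, at a median of 60 and 37 reads.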

Other observations

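Of the 688 peaks assigned to carriers, 143 in 64 genes were nearest to the transcription start of another gene. Their median log2 ratio was -0.075. Of them 23 (16.1%) were below 0.66 of SCR and 4 (2.80%) above 1.5. The 545 peaks nearest to their own carrier had a median of -0.13, with 62 (11.4%) below and 14 (2.57%) above. Of all gene-assigned peaks 12.2% were below and 2.82% above. The peak of Slc44a3 at chr3:121258492-121258821, which is nearest to Cnn3, the gene of the actin-binding calponin 3, had 29.6 in SCR and 8.15 in siPiezo2 (68 and 13 reads, log2 ratio -1.74, interval -2.77 to -0.92). The other pair of peaks there had 27.2 and 15.5, and 15.9 and 15.7. In Slc24a4, the 5 peaks nearest to Rin3 summed to 173 in SCR and 120.0 in siPiezo2. In Slc10a7, the 3 peaks nearest to Lsm6 had 119 and 73.5.

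Carrier genes whose symbols have another form (the Slco family and Slc symbols with further letters) were kept apart. These 31 genes with 76 peaks had a median log2 ratio of -0.062, with 1 lower gene (3.23%) and 0 higher, against 6.21% and 1.54% of all genes. With 1 library per condition no test was run, so there is no count at an unadjusted p.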
